A study of Mus musculus with 4 samples.

Results

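The BCL2 family comprises the proteins that decide whether the outer membrane of the mitochondrion stays sealed or is opened to release cytochrome c. The family members examined here were Bcl2, Bcl2l1, Mcl1, Bax, Bak1, Bbc3, Pmaip1, Bcl2l11, Bid and Bad. These 10 genes were listed by name, with earlier results of these data known. A gene was represented by the array feature, called a probe set, that the platform annotation assigns to that gene symbol alone. Where a gene had several, the probe set with the highest mean over the 4 arrays was taken. This gave 9 of the 10 members among 22180 genes represented in the same way, and Bax was not analysed here. Of the 9, 7 had a mean log2 level at or above 2.84, the median of all probe sets, and entered the test with 11668 genes in all. Bbc3 and Pmaip1 lay below that limit, and their levels are given as measured with the fit made without the limit.

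The arrays held RNA of mammary epithelial cells from the inguinal glands of mice aged 4 weeks on a congenic FVB/NJ background. There were 2 samples of MMTV-Cre+ mice and 2 of wild-type littermates, with 1 array for each sample. The MMTV-Cre transgene expresses Cre, a DNA recombinase, from the hormone-responsive viral promoter of MMTV, and is used to delete floxed genes in mammary epithelium although it is known to be active in some other tissues too. The labels name no floxed allele in either group, and neither the transgenic line nor the number of mice behind a sample is given in the labels. Both samples of each group are labelled as biological replicates.

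In this family, anti-apoptotic proteins such as BCL2, BCL-XL (from Bcl2l1) and MCL1 bind and restrain the pore-forming effectors BAX and BAK (from Bak1). BH3-only proteins report stress: BIM (from Bcl2l11), PUMA (from Bbc3), NOXA (from Pmaip1), BID and BAD bind the anti-apoptotic proteins, and some of them also activate the effectors directly. In the mammary gland these proteins are known for their part in clearing the lumen of ducts at puberty and in the loss of milk-producing cells after weaning. Several of the genes, Bax, Bbc3 and Pmaip1 among them, are textbook targets of the DNA damage response.

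All 10 epithelial marker genes lay above the limit for dim genes. So did all 8 fibroblast and all 6 endothelial markers, so passing the limit does not measure the purity of the cells. Epcam stood between 8.52 and 8.67 and the luminal keratin gene Krt8 between 10.30 and 10.40 over the 4 arrays. The basal keratin gene Krt14 stood at 7.27 in MMTV-Cre replicate 1 and was higher, 7.97 to 8.07, in the others. Wild-type replicate 1 stood apart from the other 3 arrays by lymphocyte transcripts. Of 15 T, NK and B cell markers 14 had a probe set, and their mean log2 level was 5.17 in wild-type replicate 1, 2.97 in wild-type replicate 2 and 2.89 and 3.01 in MMTV-Cre. The defining T cell marker Cd3g stood at 6.63 there and at 2.71 or less elsewhere, while Cd4, Cd8a and Ms4a1 had means below the limit for dim genes. All 11 lymphocyte markers tested had a difference below 0. In 3 of them, Cd5, Lat and Ptprc, the groups did not overlap, as wild-type replicate 2 also exceeded the MMTV-Cre values. By limma 1, Cd5, had an unadjusted p under 0.05. Without wild-type replicate 1, Cd5, Lat and Ptprc differed by −0.46, −0.29 and −0.24, but Cd2, Cd3g and Cd79a by 0.18, 0.12 and 0.43. Some markers of other cell types also had groups that did not overlap. Over all genes tested, 16.7% had such groups with MMTV-Cre higher and 16.5% with MMTV-Cre lower. By limma, 4.32% of all genes tested had an unadjusted p under 0.05. Of 7 macrophage and 6 endothelial markers tested, 0 had groups that did not overlap. Of 8 fibroblast markers, 7 had a difference above 0 and 5 were higher in both MMTV-Cre arrays, with a median difference of 0.25. Their mean level was 7.02 and 7.52 in MMTV-Cre and 7.04 and 7.05 in wild-type, so the groups overlapped in that mean. Of 7 mast cell and neutrophil markers tested, 4 were lower in both MMTV-Cre arrays and 3 had an unadjusted p under 0.05, with a median of −0.46. The mean level over the 9 such markers measured was 3.41 and 3.69 in MMTV-Cre against 3.94 and 3.80. Cxcr2, 1 of the 4, had both MMTV-Cre values, 2.76 and 2.73, below the limit for dim genes. It entered the test through its wild-type values, so its separation supports nothing. Of 6 adipocyte markers tested, 3 lay lower in both MMTV-Cre samples and 1 had an unadjusted p under 0.05 by limma. The 6 had a median difference of −0.19, and the mean level over 7 measured markers was 3.99 and 4.25 against 4.31 and 4.35. None of these markers passed limma's adjusted threshold, and the part of these cell types in the values of Bak1 and the other members was not tested. Because of wild-type replicate 1, each member is given below with and without it. A smaller number of cells of a type and less RNA per cell cannot be told apart in such samples.

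Among the 7 members tested, 0 passed limma at an adjusted p under 0.05, where percent called over all 11668 genes was 0, and 1, Bak1, had an unadjusted p under 0.05, where it was 4.32% of all genes. The groups did not overlap in Bak1 and Bad, 2 of these 7 genes, both higher in MMTV-Cre, where 33.1% of all genes tested had groups that did not overlap and 16.7% had them higher in MMTV-Cre. In the values as deposited the count over the members was thus close to the background. Under quantile normalization and under median centring Bcl2 and Bcl2l1 were also separate, which made 4 of 7, all higher in MMTV-Cre. Over all genes 33.7% and 33.3% were then separate, and 19.3% and 17.3% were higher. Of the 7 differences, 5 were above 0 and 2 below, against 49.0% above 0 over all genes. Over all 9 measured members, 6 differences were above 0 and 3 below, and the groups did not overlap in 3, with Bbc3 as the third. The median log2 difference over the 7 members tested was 0.11, from −0.10 to 0.36, and over all genes tested it was −0.0039. Over the 9 measured members the median was also 0.11, and it was 0.043 without wild-type replicate 1, 0.051 without MMTV-Cre replicate 2 and 0.028 with the mean of each gene's probe sets. With 2 arrays against 2, a two-sided exact permutation test cannot give a p below 0.333, and the median half-width of a 95% interval was 0.34 log2 units, so precision for a single gene was low.

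**Figure D1:**
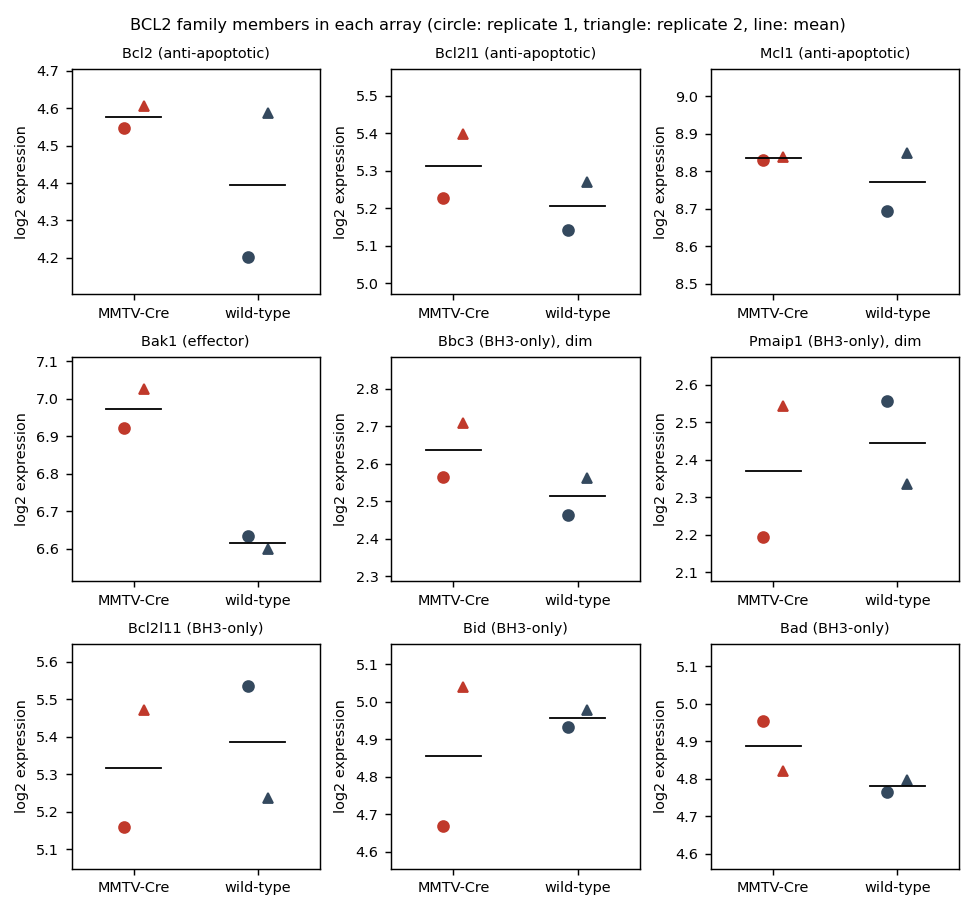
Log2 expression of the 9 measured members in each of the 4 arrays, with MMTV-Cre in red and wild-type in grey and group means as lines; every panel has the same span. Bak1 has both MMTV-Cre arrays (6.92 and 7.03) well above both wild-type arrays (6.63 and 6.60), and in most other panels the groups overlap.

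Because Bak1 and Bad were the tested members whose groups did not overlap, the promoter windows around their annotated starts are shown. Both come from RefSeq on mouse assembly GRCm38.p6 and run 5′ to 3′ on the gene's strand, from 250 bases before the start to 50 bases after it. The Bak1 window is chr17:27028578-27028877 on the minus strand, and the Bad window is chr19:6941611-6941910 on the plus strand. Capitals mark every match to GGGCGG, the GC box, on either strand, which reads CCGCCC where the match lies on the opposite strand.
Bak1: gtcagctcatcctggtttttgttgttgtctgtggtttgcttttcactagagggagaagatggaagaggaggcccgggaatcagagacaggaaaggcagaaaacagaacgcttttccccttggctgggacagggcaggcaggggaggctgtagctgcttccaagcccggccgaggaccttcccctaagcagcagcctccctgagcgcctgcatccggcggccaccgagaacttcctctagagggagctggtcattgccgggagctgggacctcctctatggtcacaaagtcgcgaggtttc
Bad: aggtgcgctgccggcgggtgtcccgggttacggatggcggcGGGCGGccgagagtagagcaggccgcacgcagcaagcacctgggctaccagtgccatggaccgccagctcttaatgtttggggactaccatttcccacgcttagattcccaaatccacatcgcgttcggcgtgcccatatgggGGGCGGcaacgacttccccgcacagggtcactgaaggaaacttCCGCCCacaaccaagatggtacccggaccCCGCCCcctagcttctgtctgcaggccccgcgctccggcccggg
The Bad window held 4 GC boxes, the nearest before the start beginning 23 bases upstream. The Bak1 window held none of the motifs searched. Those were the GC box GGGCGG, the CCAAT box CCAAT, the TATA box TATAAA, the AP-1 site TGACTCA and the E-box CACGTG, each on both strands and with none of them overlapping another in the windows shown. Over 32851 windows of the same length, the share holding each motif was 35.7% for the GC box, 37.4% for CCAAT, 13.6% for TATAAA, 5.2% for TGACTCA and 7.15% for CACGTG. These matches describe letters in a window and are not binding sites. A second annotated start of Bad, with a window at chr19:6942312-6942611, held no GC box and 1 CCAAT box.

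RefSeq windows were searched for 9 of the 10 members, 15 windows in all since some genes have several starts. No window on chromosome 18, which holds Pmaip1, was used for the members. Their GC content ran from 49.3% in a Bcl2l1 window to 78% in a Bbc3 window, against a median of 52.7% over all windows. The Bak1 window had 58.3% and the first Bad window 65.7%. GC boxes were most numerous in the windows of Bcl2, with 7, and of Bbc3, with up to 7, and there were 0 in the 3 windows of Bcl2l1. The single Mcl1 window had 1 GC box, the Bid window 3 and each of the Bcl2l11 windows 3. So the 2 tested members with separate groups did not share a motif here: one window carries several GC boxes and the other none.

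Bak1 (Entrez Gene 12018) encodes BAK, the effector that sits on the mitochondrial membrane and forms pores once released from MCL1 and BCL-XL. Its log2 level was 6.92 and 7.03 in MMTV-Cre replicates 1 and 2 and 6.63 and 6.60 in wild-type replicates 1 and 2. Both MMTV-Cre arrays were above both wild-type arrays, and the 0.29 log2 units between the lower MMTV-Cre and the higher wild-type array exceeded the 0.10 and 0.034 between arrays of a group. The means were 6.97 ± 0.073 (SD, n = 2) in MMTV-Cre and 6.62 ± 0.024 (SD, n = 2) in wild-type. The log2 difference was 0.36 (SE 0.11, 95% interval 0.07 to 0.64), a ratio of 1.28 (1.05 to 1.56). It did not pass limma's test, with an unadjusted p = 0.0229, an adjusted p = 0.964 over all genes and rank 193 by p among the 11668 genes. The difference was 0.37 without wild-type replicate 1, so it was as large without the array that carried the lymphocyte transcripts, and it lay between 0.31 and 0.41 when any 1 array was left out. Its size was above that of 93.7% of the genes tested.

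Bak1 also had the largest range over the 4 arrays among the 9 measured members, 0.43 log2 units. The genes whose pattern over the 4 arrays was most like it were Smtnl2, Rfng and Tatdn2. Likeness was the root mean square distance between log2 values after each gene's mean was subtracted, and it was 0.011 for Smtnl2 and 0.012 for Rfng and for Tatdn2. Their differences were 0.37, 0.33 and 0.34. With 4 arrays many genes come close, and 425 tested genes lay within a distance of 0.1 of Bak1.

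The anti-apoptotic members Bcl2, Bcl2l1 and Mcl1 all had differences above 0 with overlapping groups, and each difference was smaller than the wider gap between 2 arrays of a group. Their median difference was 0.11. Wild-type replicate 1, which carried the lymphocyte transcripts, was lowest in all 3 genes, and leaving it out turned the median to −0.011. The part of those transcripts in the result was not tested.

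Bcl2 (Entrez Gene 12043) encodes the founding member of the family, which is known to be abundant in lymphocytes as well as in epithelium. It stood at 4.55 and 4.60 in MMTV-Cre replicates 1 and 2, at 4.20 in wild-type replicate 1 and at 4.59 in wild-type replicate 2. Only the value of wild-type replicate 1 was low, and the other 3 arrays lay within 0.056 log2 units of one another. The log2 difference was 0.18 (95% interval −0.23 to 0.59), and −0.011 without wild-type replicate 1. A second Bcl2 probe set, dimmer at a mean of 2.56, ran the other way, with its highest value of 2.84 in wild-type replicate 1, 2.41 in wild-type replicate 2 and 2.64 and 2.37 in MMTV-Cre. The 2 probe sets disagreed in sign, at 0.18 and −0.13, with both intervals including 0, and their mean gave a difference of 0.028.

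Bcl2l1 (Entrez Gene 12048) encodes BCL-XL, a survival factor of epithelial cells that is induced through STAT5 in several tissues. It was at 5.23 and 5.40 in the MMTV-Cre arrays against 5.14 and 5.27 in wild-type, replicate 1 first. The groups overlapped, since wild-type replicate 2 lay above MMTV-Cre replicate 1. The difference was 0.11 (−0.21 to 0.43), and 0.043 without wild-type replicate 1. A shorter, pro-apoptotic product of this gene arises by splicing, and a single value for the gene does not separate the forms.

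Mcl1 (Entrez Gene 17210) encodes a short-lived survival protein that holds BAK in check, and it is a survival factor of mammary epithelium. Its level was 8.83 and 8.84 in MMTV-Cre and 8.69 and 8.85 in wild-type, so that 3 arrays were nearly equal and wild-type replicate 1 was lowest. The difference was 0.062 (−0.24 to 0.36) and turned to −0.015 without wild-type replicate 1. Mcl1 had the smallest range over the arrays of the 9 members, 0.16 log2 units. In a separate fit over all 41345 probe sets, a second probe set of Mcl1 gave a difference of −0.025 (−0.35 to 0.30), at a mean level of 7.95. The interval of the first probe set in that fit was −0.28 to 0.40.

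**Figure D2:**
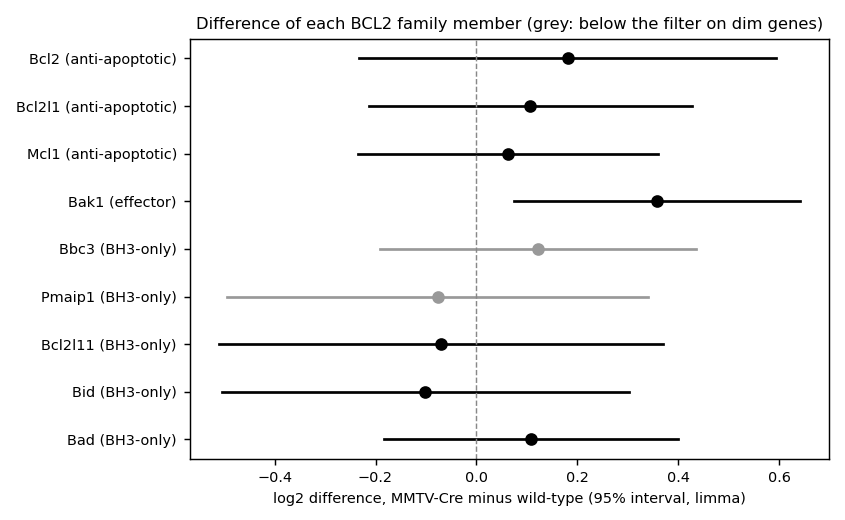
Log2 difference of each measured member, MMTV-Cre minus wild-type, with its 95% interval from limma; black points are the 7 members tested and grey points the 2 below the limit for dim genes. Only the interval of Bak1 (0.07 to 0.64) lies clear of 0, and it did not pass after adjustment over all genes.

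Of the 5 BH3-only members, Bad and Bbc3 had differences above 0 and Bcl2l11, Bid and Pmaip1 below 0. Their median difference was −0.07. It turned to 0.086 without MMTV-Cre replicate 1 and to 0.073 without wild-type replicate 1. In all 5 genes the 2 MMTV-Cre arrays differed more from each other than the group means did.

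Bcl2l11 (Entrez Gene 12125) encodes BIM, which binds every anti-apoptotic member and drives the death of cells detached in the duct lumen. Its level was 5.16 and 5.47 in the MMTV-Cre arrays against 5.54 and 5.24 in wild-type, replicate 1 first. Each group had a high and a low array, 0.31 log2 units apart in MMTV-Cre and 0.30 in wild-type. The difference was −0.07 (−0.51 to 0.37), and it was 0.079 without wild-type replicate 1 and 0.086 without MMTV-Cre replicate 1. Its direction thus rested on which arrays were compared.

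Bid (Entrez Gene 12122) encodes the link between death receptors and mitochondria, cut into its active form by caspase 8. Its values were 4.67 and 5.04 in MMTV-Cre and 4.93 and 4.98 in wild-type. MMTV-Cre replicate 1 was the low array, 0.37 log2 units below MMTV-Cre replicate 2, while the wild-type arrays differed by 0.045. The difference was −0.10 (−0.50 to 0.30), −0.12 without wild-type replicate 1, and 0.084 without MMTV-Cre replicate 1. The same array, MMTV-Cre replicate 1, had the lowest mean level of the epithelial markers, 7.35 against 7.45 to 7.47, and of the macrophage markers, 4.43 against 4.73 to 5.08. Single epithelial markers differed in this: Krt8 and Krt14 were lowest in that array, while Epcam, at 8.67, was highest there. MMTV-Cre replicate 1 was also lowest in mean level for the lymphocyte, mast cell and neutrophil, fibroblast and adipocyte lists, but not for the endothelial list. The part of these differences in the values of Bid was not tested.

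Bad (Entrez Gene 12015) encodes a BH3-only protein that growth factor kinases phosphorylate and that 14-3-3 proteins then hold in the cytosol. It was at 4.95 and 4.82 in the MMTV-Cre arrays against 4.76 and 4.80 in wild-type. Both MMTV-Cre arrays were higher, but only 0.025 log2 units separated the lower of them from the higher wild-type array, less than the 0.13 between the MMTV-Cre arrays. The difference was 0.11 (−0.18 to 0.40), with an adjusted p = 0.985 by limma, and 0.092 without wild-type replicate 1. Without MMTV-Cre replicate 1 it was 0.041. A dim probe set annotated to both Gpr137 and Bad, with a mean of 2.12, was left out because it cannot be assigned to 1 gene.

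Bbc3 (Entrez Gene 170770) encodes PUMA, a strong inducer of apoptosis after DNA damage, and Pmaip1 (Entrez Gene 58801) encodes NOXA, which neutralises MCL1. Both lay below the limit for dim genes in these cells. Bbc3 stood at 2.56 and 2.71 in the MMTV-Cre arrays against 2.46 and 2.56 in wild-type, and the groups were parted by only 0.0015 log2 units. Its difference was 0.12 (−0.19 to 0.43) in the fit without the limit, and 0.073 without wild-type replicate 1. Pmaip1 stood at 2.19 and 2.54 in the MMTV-Cre arrays against 2.56 and 2.34 in wild-type, with overlapping groups and a difference of −0.077 (−0.49 to 0.34). Without wild-type replicate 1 that difference was 0.033, and at these levels the size of a difference is uncertain.

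**Figure D3:**
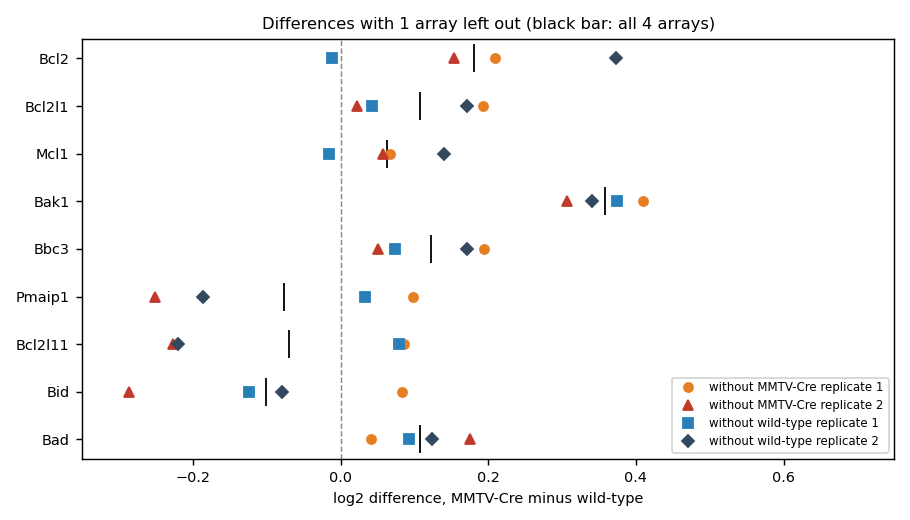
Log2 difference of each measured member, MMTV-Cre minus wild-type, with all 4 arrays (black bar) and with 1 array left out (coloured symbols). Bak1 stays between 0.31 and 0.41, whereas the symbols of Bcl2, Mcl1, Bcl2l11, Bid and Pmaip1 lie on both sides of 0.

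By role, the medians of the members varied from array to array. After each gene's mean was subtracted, the median of the 3 anti-apoptotic genes was 0.026 and 0.12 in MMTV-Cre replicates 1 and 2, −0.12 in wild-type replicate 1 and 0.046 in wild-type replicate 2. The median of the 5 BH3-only genes was −0.19 and 0.13 in MMTV-Cre and 0.028 and −0.038 in wild-type. The BH3-only median was thus lowest and highest within the MMTV-Cre group, and the anti-apoptotic median was lowest in wild-type replicate 1. Bak1, the sole effector measured, was at 0.13 and 0.23 in the MMTV-Cre arrays against −0.16 and −0.20 in wild-type, the only role in which the groups were parted in the values as deposited.

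The remaining genes of the pathway were taken from lists made by known function. In the wider BCL2 family 7 of 16 genes were tested, 3 with a difference above 0 and 4 below, with a median of −0.13, and 0 passed limma or had an unadjusted p under 0.05. Bik, a BH3-only gene of epithelial cells, stood at 4.30 and 4.50 in the MMTV-Cre arrays against 4.19 and 4.16 in wild-type, a difference of 0.23 (−0.09 to 0.54) with groups that did not overlap. Bok, an effector-like relative of Bax and Bak1, stood at 3.65 and 3.58 in the MMTV-Cre arrays against 3.85 and 3.78 in wild-type. Its difference was −0.20 (−0.48 to 0.08), again without overlap and opposite in sign to that of Bak1. Bcl2l13 differed by −0.14 with overlapping groups, and by 0.011 without wild-type replicate 1.

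Downstream of the mitochondrion, cytochrome c assembles the apoptosome, which activates caspases, and Diablo (also called SMAC) is released with it to lift the block that inhibitor proteins place on caspases. Of 14 such genes 11 were tested, 3 with a difference above 0 and 8 below, with a median of −0.053. None passed by limma, and 1, Diablo, had an unadjusted p under 0.05, where it was 4.32% of all genes. Diablo was at 4.79 and 4.81 in the MMTV-Cre arrays against 5.16 and 5.05 in wild-type, lower in both MMTV-Cre arrays by at least 0.24 log2 units. Its difference was −0.30 (−0.59 to −0.02), with limma's unadjusted p = 0.0405 and adjusted p = 0.964, and −0.25 without wild-type replicate 1. Dffa, the inhibitor of the caspase-activated nuclease, differed by −0.24 (−0.56 to 0.07), and Endog, a mitochondrial nuclease, by 0.16 (−0.17 to 0.49).

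Among 9 caspase inhibitor genes 6 were tested, 2 above 0 and 4 below, with a median of −0.095, and 0 passed or had an unadjusted p under 0.05. Birc3 and Birc2, the cellular inhibitors cIAP2 and cIAP1, differed by −0.29 (−0.73 to 0.14) and −0.30 (−0.77 to 0.18). Without MMTV-Cre replicate 1, the array lowest in Birc3, the difference of Birc3 was −0.089. Without wild-type replicate 1 the difference of Birc2 was −0.06, since that array stood at 6.08 and the others between 5.48 and 5.61. Birc5, which encodes survivin and is also a gene of dividing cells, differed by −0.16 (−0.44 to 0.12).

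Of 10 death receptor pathway genes 8 were tested, 6 above 0 and 2 below, with a median of 0.040, and 0 passed or had an unadjusted p under 0.05. Tnfrsf1a, the main receptor of tumour necrosis factor, stood at 5.12 and 5.20 in the MMTV-Cre arrays against 4.80 and 5.03 in wild-type, with a difference of 0.25 (−0.09 to 0.58). Fadd, the adaptor that recruits caspase 8, differed by −0.28 (−0.76 to 0.20), and the death ligand gene Tnfsf10 by 0.18 (−0.29 to 0.66). In both genes 1 MMTV-Cre array stood away from the other 3 arrays.

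Partners and modifiers of the members numbered 28 genes, of which 23 were tested, 13 above 0 and 10 below, with a median of 0.0060. The groups did not overlap in 6 genes that were higher in MMTV-Cre and in 6 that were lower, where 33.1% of all genes had separate groups. By limma 0 passed and 2, Pim2 and Dynll1, had an unadjusted p under 0.05, where it was 4.32% of all genes. Dynll1, a dynein light chain that tethers BIM, stood at 4.03 and 3.99 in the MMTV-Cre arrays against 3.51 and 3.76 in wild-type, a difference of 0.37 (0.03 to 0.71) that was 0.24 without wild-type replicate 1. Pim2, a kinase of BAD known from lymphoid cells, stood at 2.83 and 2.64 in the MMTV-Cre arrays against 3.52 and 3.07 in wild-type. Its MMTV-Cre values both lay below the limit for dim genes, so it entered the test through its wild-type values, and its difference of −0.56 and its p support nothing. Pim2 was 1 of the 6 genes counted above as lower and 1 of the 2 counted by p. It was highest in wild-type replicate 1 together with the lymphocyte markers, and differed by −0.33 without that array. The autophagy gene Becn1, whose product binds BCL2, stood at 4.69 and 4.64 in the MMTV-Cre arrays against 4.46 and 4.44 in wild-type, a difference of 0.21 (−0.06 to 0.49).

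Of 13 transcription factor genes known to act on members, 11 were tested, 7 above 0 and 4 below, with a median of 0.057, and 0 passed or had an unadjusted p under 0.05. Ddit3, a stress factor that induces BIM, differed by 0.18 (−0.13 to 0.49), and Foxo3, which also induces BIM, by −0.17 (−0.48 to 0.13). Jun differed by 0.48 (−0.04 to 0.99), and by 0.21 without wild-type replicate 1. In Ddit3, Foxo3 and Jun alike the groups did not overlap. Of the 11 genes tested, 3 had separate groups with MMTV-Cre higher and 1 with MMTV-Cre lower, where 33.1% of all genes had separate groups.

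**Figure D4:**
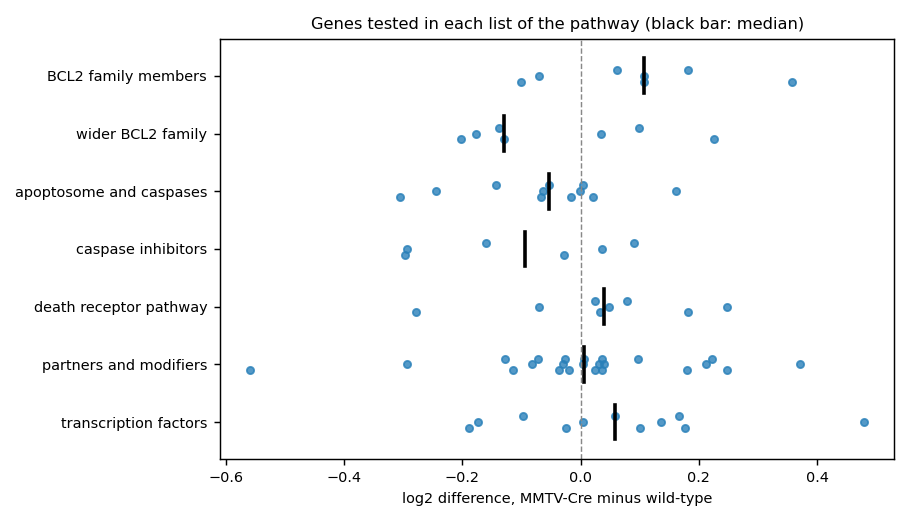
Log2 difference, MMTV-Cre minus wild-type, of every gene tested in the BCL2 family members and in each list of the pathway, 1 point per gene, with the list's median as a black bar. The medians lie between −0.13 and 0.11, and points fall on both sides of 0 in every list.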

How the data were processed

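Transcripts were measured on Affymetrix arrays in 2 MMTV-Cre and 2 wild-type samples. The authors deposited log2 expression values per probe set, made with oligo and RMA per the submitters' processing notes; their versions, the genome build and the probe annotation used are not stated there. The log2 scale was read from the values (array medians 2.83 to 2.86). RMA equalises arrays, so a shift of most transcripts cannot be seen. Names came from the platform annotation: 23521 of 41345 probe sets had 1 symbol, 1814 several and 16010 none.

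The MMTV-Cre arrays were compared with the wild-type arrays by limma 3.58.1 (R 4.3.3, lmFit, eBayes without a trend, two-sided) over 11668 genes with a mean at or above 2.84, with Benjamini-Hochberg adjustment over all of them, at 0.05. The script was tested on simulated data. The members and lists were chosen with earlier results of these data known. Genes named beyond the members are up to 3 per pathway list by smallest p, 3 nearest to the member of largest range, and set markers. Alternatives were other filters, probe set rules, scalings, variance models, the replicate number as a block and leaving out each array. The number of arrays limits the precision.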

Additional observations from a re-analysis of the deposited data

How the results depend on the processing

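The count of members past the threshold was 0 in every alternative with an adjusted p, including each fit without 1 array, and 1 (Bak1) at an unadjusted p under 0.05. The count of genes past it was 0 in the alternatives that kept all 4 arrays, 504 at an unadjusted p under 0.05, and 0 to 13 when single arrays were left out, with 13 in the absence of wild-type replicate 2. In those fits the lone array of a group takes its spread from the other group. The replicate number as a block gave 0 genes and 0 members. Deviations of same-numbered samples correlated at −0.039, so the numbers were not taken to pair the samples; whether same-numbered mice share a litter or day is not given in the labels.

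The number of the 9 measured members whose groups do not overlap went from 3 to 5 under quantile normalization and under median centring, by the addition of Bcl2 and Bcl2l1. The share over all genes tested then was 33.7% and 33.3%. The median over the anti-apoptotic members lay between −0.011 and 0.19 when single arrays were left out, at −0.011 without wild-type replicate 1, and that over the BH3-only members between −0.23 and 0.086. Directions turned for Bcl2 (−0.011), Mcl1 (−0.015), Bcl2l11 (0.079) and Pmaip1 (0.033) without wild-type replicate 1, and for Bcl2l11 (0.086), Bid (0.084) and Pmaip1 (0.098) without MMTV-Cre replicate 1; the cause was not tested. With single arrays left out the differences lay between −0.011 and 0.37 for Bcl2, −0.015 and 0.14 for Mcl1, −0.23 and 0.086 for Bcl2l11, −0.29 and 0.084 for Bid, and −0.25 and 0.098 for Pmaip1. Bak1, Bad, Bbc3 and Bcl2l1 kept their direction under quantile normalization, under median centring and when any 1 array was left out. The remaining alternatives leave the difference of these genes as it is, so they could not turn it.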
